A study of Homo sapiens with 2 samples.

Results

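The insulin-like growth factor (IGF) genes described here are 6 secreted IGF binding proteins (IGFBP1, IGFBP2, IGFBP3, IGFBP4, IGFBP6 and IGFBP7), 3 receptors (IGF1R, IGF2R and INSR) and the adaptor IRS2. They were chosen by symbol, with earlier results of these data known. All 10 were listed in both libraries, out of 18786 symbols with a value in both. RNA sequencing had been done on A549, an established human lung adenocarcinoma line, in 2 libraries: 1 of cells stably transduced with the retroviral vector alone and 1 of cells stably transduced with retroviral ATOH8, which encodes a DNA-binding protein of the basic helix-loop-helix class. The labels do not say whether either culture was a clone or a pool, or which promoter drove ATOH8. Each group held 1 library, so there was no replicate error, no test was run, and every difference below is a difference between these 2 libraries.

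IGF1 and IGF2 act through IGF1R, a receptor tyrosine kinase, and IGF2 also through INSR, the insulin receptor. IGF2R has no kinase and carries IGF2 and mannose 6-phosphate-tagged enzymes to lysosomes. IRS2 docks on the active receptors and recruits PI3-kinase, which switches on AKT and holds FOXO factors out of the nucleus. Binding proteins hold the ligands outside the cell, prolong their lifetime or keep them from the receptor, and proteases that cleave them set the ligands free; IGFBP7 binds IGFs only weakly.

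Levels are FPKM (fragments per kilobase of transcript, scaled to the library's total), which the authors deposited without read counts, so the depth is unknown and no counting interval could be given. ATOH8 was listed at 0.786 FPKM with vector and 182 FPKM with ATOH8, as the labels require. Keratin genes KRT8 and KRT18 were between 2012 and 2486 FPKM and the A549-typical detoxification genes, among them AKR1B10 and ALDH1A1, between 691 and 4868 FPKM in both libraries, whereas KRT19 was under 0.22 FPKM and EPCAM at 1.70 and 2.23 FPKM. The fifth epithelial marker, the E-cadherin gene CDH1, differed between the libraries, at 15.4 FPKM with vector and 54.1 FPKM with ATOH8. Of 6 fibroblast markers, 4 were listed in the vector and 5 in the ATOH8 library, none above 0.362 FPKM, with sums of 0.756 and 0.763 FPKM. The 4 endothelial markers were listed only in the ATOH8 library, at a sum of 0.0820 FPKM. Of 4 immune markers, CD14 (1.12 and 9.14 FPKM, vector and ATOH8) and CD68 (2.14 and 15.4 FPKM) were higher in the ATOH8 library, PTPRC was at 0.0111 FPKM there and unlisted in the vector library, and CD3E was in neither. Their part in the values below was not tested.

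The starts of the genes are shown first, because ATOH8 belongs to a family of factors that bind E-boxes, the letters CANNTG. The promoter table of RefSeq (GRCh38.p14) held 8 of the 10 members. It did not hold IGFBP1 and IGFBP7. The sequences below are the 250 bases before the start of 4 members: IGFBP3 and IGFBP4, whose transcripts were at least 2-fold higher in the ATOH8 library, IRS2, the member closest to the median gene, and IGF2R, which had more E-boxes than any other member in the table. Capitals mark every CANNTG, a word that reads the same on both strands. The windows are chr7:45921273-45921522 (minus strand) for IGFBP3, chr17:40443200-40443449 (plus) for IGFBP4, chr13:109786584-109786833 (minus) for IRS2 and chr6:159968832-159969081 (plus) for IGF2R.
IGFBP3: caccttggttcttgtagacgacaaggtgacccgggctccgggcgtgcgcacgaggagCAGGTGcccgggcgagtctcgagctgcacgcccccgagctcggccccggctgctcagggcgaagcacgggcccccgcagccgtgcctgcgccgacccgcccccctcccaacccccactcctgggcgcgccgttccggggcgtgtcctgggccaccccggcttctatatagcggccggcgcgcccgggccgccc
IGFBP4: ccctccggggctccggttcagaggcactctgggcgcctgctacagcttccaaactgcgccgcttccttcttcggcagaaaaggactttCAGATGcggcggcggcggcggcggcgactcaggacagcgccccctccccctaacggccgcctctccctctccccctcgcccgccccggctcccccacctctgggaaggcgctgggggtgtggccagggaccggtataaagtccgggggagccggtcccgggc
IRS2: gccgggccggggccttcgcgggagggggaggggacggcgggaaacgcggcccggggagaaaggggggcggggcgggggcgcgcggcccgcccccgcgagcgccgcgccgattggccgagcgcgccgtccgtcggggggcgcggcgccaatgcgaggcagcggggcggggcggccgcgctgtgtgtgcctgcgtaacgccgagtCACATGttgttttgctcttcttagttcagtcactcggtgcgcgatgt
IGF2R: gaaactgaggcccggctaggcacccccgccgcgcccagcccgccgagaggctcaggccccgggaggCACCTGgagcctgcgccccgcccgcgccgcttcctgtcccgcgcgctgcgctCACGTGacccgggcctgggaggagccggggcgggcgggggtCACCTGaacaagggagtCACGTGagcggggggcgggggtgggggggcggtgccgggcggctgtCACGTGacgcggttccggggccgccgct

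The windows of IGFBP3, IGFBP4 and IRS2 each held 1 E-box, CAGGTG at 193 bases before the start of IGFBP3, CAGATG at 162 bases before that of IGFBP4 and CACATG at 47 bases before that of IRS2. IGF2R held 5, of which 3 were CACGTG. An E-box was found in 61.8% of all 35116 promoters of the same length, with a median of 1 per promoter, and 5 or more stood in 0.888% of them. IGF1R and INSR had 0 in this window, as had 38.2% of all promoters. A FOXO word, TGTTTAC on either strand, was found in 2.98% of all promoters and in 1 of the 8 members, IGFBP6, as GTAAACA at 186 bases before the start, in no overlap with its E-box CACCTG. The TATAAA word (10.7% of all promoters, either strand) was present at 29 bases before the start of IGFBP4 and in no other member. These are matches of letters and say nothing about whether a factor binds there.

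Transcripts of 3 binding proteins, IGFBP1, IGFBP3 and IGFBP4, were at least 2-fold higher in the ATOH8 library, and no member was at least 2-fold lower. Folds are given as log2(FPKM + 1) in the ATOH8 library minus the same in the vector library, and the pseudocount of 1 understates the change of low genes. Since the median fold of well expressed genes (FPKM averaging at least 5) was -0.36, folds are stated relative to that median gene, with the fold as deposited beside them where it matters. Among the 12342 genes whose FPKM averaged at least 1, a group that includes all 10 members, 12.8% were at least 2-fold higher than the median gene and 9.46% at least 2-fold lower, against 3 and 0 of the 10 members. With the FPKM as deposited the background was 6.24% higher and 19% lower, and the members again gave 3 and 0. The median fold of the members was 0.84, beside 0.06 over all genes tested. All 10 lay above the median gene, a position shared by 53% of genes. As deposited, 8 of the 10 were higher in the ATOH8 library, beside 35.3% of genes. Because the members were chosen with earlier results of these data known, the shares of all genes are given for scale and test nothing.

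**Figure D1:**
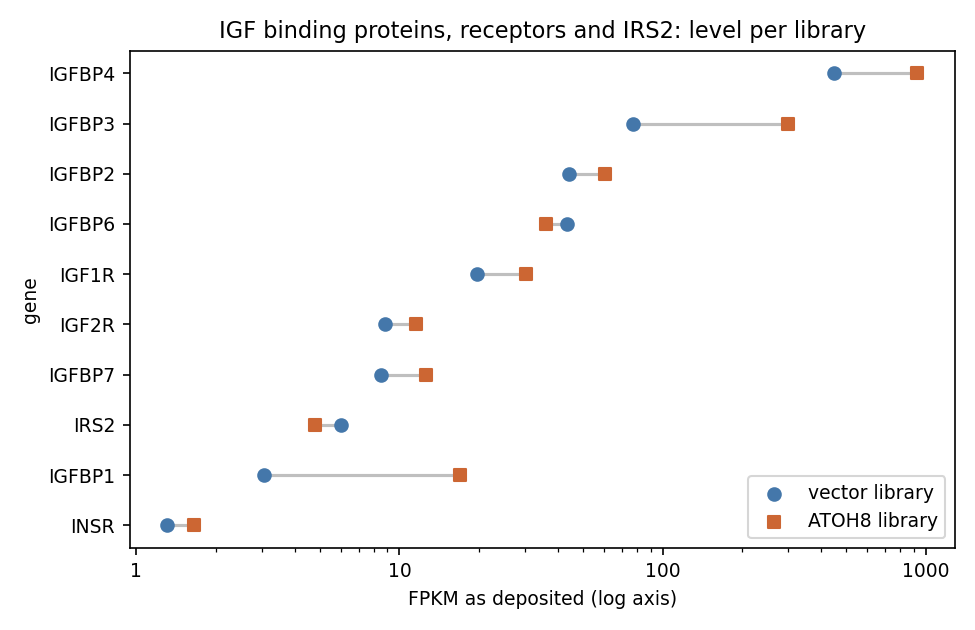
Level of each member in the vector (circle) and ATOH8 (square) library, in FPKM on a log axis, 1 library each. IGFBP1, from 3.05 to 17.0 FPKM, and IGFBP3, from 77.2 to 299 FPKM, have the longest gaps, and only IGFBP6 and IRS2 have the ATOH8 value on the left.

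IGFBP1 had the largest fold of the members. It is made mainly by liver and decidua, and in liver it is a classic FOXO target that insulin represses. IGFBP1 (ENSG00000146678, chromosome 7, 45888357 to 45893668, plus strand of GRCh38) had a level of 3.05 FPKM with vector and 17.0 FPKM with ATOH8, 5.56-fold as deposited. Its log2 fold relative to the median gene was 2.51, higher than that of 99.4% of the genes tested. In the authors' deposited table it was marked up, with a log2 ratio of 2.48 and a q-value of 0.00700, a value that compares 1 library with 1 library and not the conditions.

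IGFBP3, the main IGF carrier of blood, which also has actions that do not need IGFs, was second. IGFBP3 (ENSG00000146674, chromosome 7, 45912245 to 45921874, minus strand) stood at 77.2 FPKM with vector and 299 FPKM with ATOH8, 3.87-fold as deposited and 2.30 on the log2 scale relative to the median gene. It moved from rank 906 to rank 201 of the 18786 symbols ordered by FPKM, a comparison that does not depend on scaling. In the authors' deposited table it was marked up, with a log2 ratio of 1.95 and a q-value of 3.33e-06. Among the 18812 gene identifiers with a value in both libraries, that table marked 4.33% up and 10.2% down, and among the 10 members it marked 2 up and 0 down.

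IGFBP1 and IGFBP3 are neighbours on opposite strands, tail to tail, with 18576 bp between them in GENCODE 29. The only other protein-coding gene within 500 kb that had a value in both libraries was ADCY1, an adenylyl cyclase gene, at 2.01 and 2.34 FPKM (0.51). The pair therefore had folds of 2.51 and 2.30 beside a neighbour within 2-fold. IGFBP2 has a similar tail-to-tail neighbour in IGFBP5, 7668 bp away. IGFBP5 was listed at 0.0488 FPKM with vector and 1.10 FPKM with ATOH8, below the level required for counting. The authors' deposited table gave it a log2 ratio of 4.49 and a q-value of 2.2e-05. Other genes within 500 kb of IGFBP2 lay between -0.47 (XRCC5, a DNA end-joining gene, at 187 and 105 FPKM) and 0.20 (MARCH4).

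IGFBP4 was the most abundant member in both libraries. It is a mostly inhibitory carrier that is cut by the protease PAPPA. IGFBP4 (ENSG00000141753, chromosome 17, 40443461 to 40457731, plus strand) was at 448 FPKM with vector and 929 FPKM with ATOH8, 2.08-fold as deposited and 1.41 relative to the median gene. It was not in the authors' deposited table. Its longest transcript has a GC content of 62.5%, and folds in these libraries followed GC content: the median fold relative to the median gene was -0.70 in the tenth of genes with the lowest GC content and 0.63 in the tenth with the highest. After a lowess correction for GC content the fold of IGFBP4 was 0.82, under 2-fold. For IGFBP1 (GC content 50.2%) and IGFBP3 (49.5%) the corrected folds were 2.31 and 2.14, so 2 of the 10 members were at least 2-fold higher on that scale, beside 8.33% of genes, and 0 at least 2-fold lower, beside 5.95%. On the corrected scale 8 of the 10 lay above 0, beside 50% of genes.

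The other binding proteins were within 2-fold of the median gene. IGFBP2, a carrier with an integrin-binding motif, was at 44.0 and 60.3 FPKM (0.80), where, as below, the vector value comes first and the relative log2 fold stands in brackets. IGFBP7 was at 8.53 and 12.6 FPKM (0.87). IGFBP6, which prefers IGF2, was at 43.5 FPKM with vector and 35.9 FPKM with ATOH8, a fold of 0.09 relative to the median gene and -0.27 as deposited. IGFBP6 had the highest GC content of the members, 64.1%, and its GC-corrected fold was -0.54, the lowest of the 10. Its side of the median gene thus depended on the scale. IGFBP2 and IGFBP6 were next to each other in the vector library, with a ratio of 1.01, and were 1.68 apart in the ATOH8 library.

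**Figure D2:**
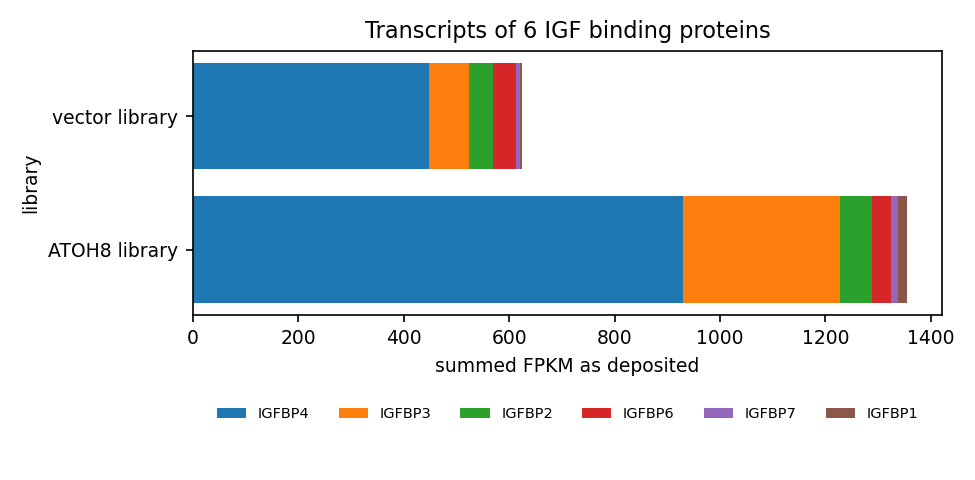
Summed FPKM of the 6 binding protein genes in each library, 1 bar per library, with a block per gene. The sum is 624 FPKM with vector and 1354 FPKM with ATOH8, and the IGFBP4 and IGFBP3 blocks make up most of both bars.

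Summed over the 6 binding proteins, transcripts amounted to 624 FPKM with vector and 1354 FPKM with ATOH8, 2.17-fold. IGFBP4 supplied 71.8% of the vector sum and 68.6% of the ATOH8 sum. The share of IGFBP3 was 12.4% and 22.1%, that of IGFBP1 0.489% and 1.25%, and that of IGFBP6 6.97% and 2.65%. Without IGFBP4 the sums were 176 and 425 FPKM, 2.41-fold, and without IGFBP3 they were 547 and 1055 FPKM, 1.93-fold. Of the difference of 730 FPKM between the sums, 248 FPKM lay outside IGFBP4. Most of that 248 FPKM was IGFBP3, at 77.2 FPKM with vector and 299 FPKM with ATOH8. IGFBP2 (44.0 and 60.3 FPKM), IGFBP6 (43.5 and 35.9 FPKM), IGFBP7 (8.53 and 12.6 FPKM) and IGFBP1 (3.05 and 17.0 FPKM) added little. The difference between the sums thus lay mainly in IGFBP4 and IGFBP3. IGFBP4 exceeded IGFBP3 5.80-fold in the vector and 3.11-fold in the ATOH8 library.

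The 3 receptors were all somewhat higher in the ATOH8 library, and none reached 2-fold. IGF1R (ENSG00000140443, chromosome 15, 98648539 to 98964530, plus strand) was at 19.7 FPKM with vector and 30.1 FPKM with ATOH8, 1.53-fold as deposited and 0.95 on the log2 scale relative to the median gene. With a pseudocount of 0.1 its relative fold was 1.00005, at the 2-fold line. IGF2R was at 8.77 and 11.6 FPKM (0.72), and INSR, the least abundant member, at 1.31 and 1.65 FPKM (0.56). The sum of the 3 was 29.7 FPKM with vector and 43.4 FPKM with ATOH8, 1.46-fold, beside 2.17-fold for the binding proteins. The binding protein sum was made up mostly of IGFBP4 and IGFBP3. IGF1R exceeded INSR 15.0-fold in the vector and 18.2-fold in the ATOH8 library, so IGF1R was the more abundant of the signalling receptor transcripts in both. The level of IGFBP3 was 3.93 times that of IGF1R in the vector and 9.92 times in the ATOH8 library. None of the 3 receptors was in the authors' deposited table.

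IRS2 (ENSG00000185950, chromosome 13, 109752698 to 109786568, minus strand) was at 5.97 FPKM with vector and 4.76 FPKM with ATOH8. Its fold was 0.08 relative to the median gene, -0.27 as deposited and -0.42 after GC correction, so its direction depended on the scale. IRS1, the related adaptor, was at 7.19 and 12.3 FPKM, a relative fold of 1.06. The ratio of IRS1 to IRS2 was 1.20 in the vector and 2.58 in the ATOH8 library.

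**Figure D3:**
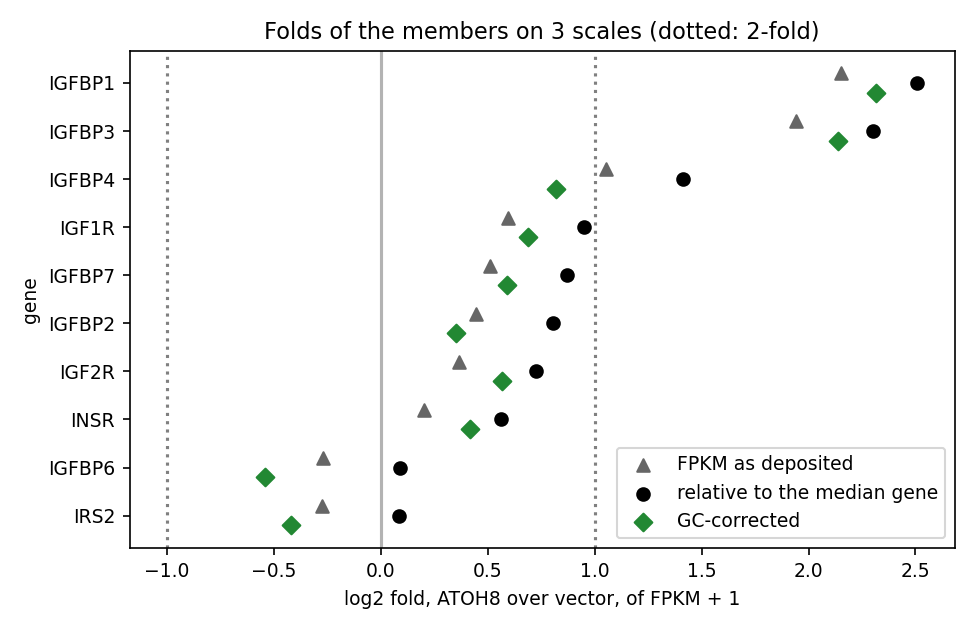
Log2 fold of each member, ATOH8 over vector, with the FPKM as deposited (triangles), relative to the median gene (circles) and GC-corrected (diamonds). IGFBP1 and IGFBP3 lie beyond the 2-fold line on all 3 scales, IGFBP4 on 2 of them, and IGFBP6 and IRS2 change side.

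The order of the members by FPKM in the vector library was IGFBP4, IGFBP3, IGFBP2, IGFBP6, IGF1R, IGF2R, IGFBP7, IRS2, IGFBP1 and INSR. In the ATOH8 library the first 5 kept their places, and IGFBP1 went from position 9 to position 6, ahead of IGFBP7, IGF2R and IRS2. With no spread over samples, neighbours such as IGF2R and IGFBP7 in the vector library, whose ratio was 1.03, cannot be told apart. For 4 members (IGFBP7, IGF1R, IGF2R and IRS2) the file's locus spanned further annotated genes, so the authors' estimates could have split reads between them. In the locus of IGFBP7 the neighbour POLR2B, an RNA polymerase II subunit gene, was at 50.5 and 23.8 FPKM (-0.69). In that of IGF1R the intermediate filament gene SYNM was at 13.6 and 3.61 FPKM (-1.30). Both stood lower with ATOH8, opposite to the members whose locus they lie in. The other neighbours with a value in both libraries, REST (-0.57) and NOA1 (0.70), are in the locus of IGFBP7. The loci of the other 6 members held no further gene.

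**Figure D4:**
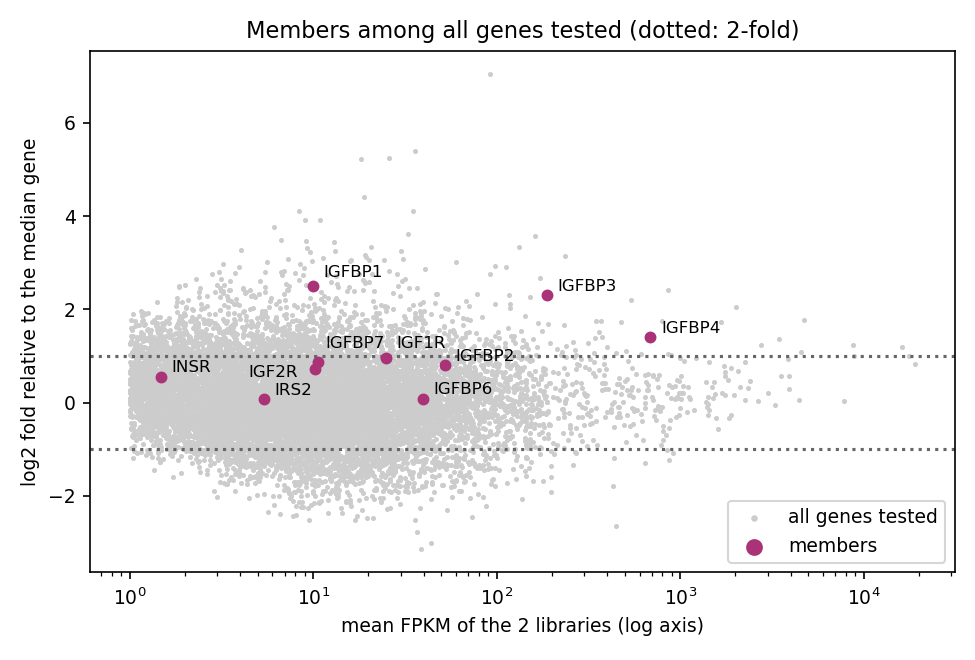
Log2 fold relative to the median gene against mean FPKM (log axis) for all 12342 genes tested (grey) and the members (coloured and named). IGFBP3 and IGFBP4 are among the abundant genes above the upper 2-fold line, and IGFBP6 and IRS2 lie near 0.

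The genes nearest to IGFBP1 by their levels in the 2 libraries (Euclidean distance of log2(FPKM + 1)) were CXCL3, a chemokine gene at 2.68 and 15.6 FPKM, ABCA7, a lipid transporter gene at 3.52 and 15.7 FPKM, and AKR1B15, an aldo-keto reductase gene at 3.77 and 18.3 FPKM, at distances of 0.18, 0.19 and 0.26. For IRS2, the lowest member, they were TANC1, RTTN and ASAP2, at distances of at most 0.0268. Only 2 genes lay within 0.25 of IGFBP1 and 306 within 0.25 of IRS2. With 2 libraries, likeness of this kind reflects level and fold alone.

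Transcripts of the ligands were near the bottom of the listed range. IGF1 was at 0.00508 FPKM with vector and 0.261 FPKM with ATOH8, IGF2 at 0.348 and 0.256 FPKM, and INS was listed in neither. IGFALS, which joins IGFBP3 and IGFs in the large complex of blood, was at 0.0731 and 0.0745 FPKM, and IGFBPL1 at 0.377 and 0.222 FPKM. No ligand or further carrier reached a mean of 1 FPKM, so none was counted.

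Among the lists of genes that act on or resemble the binding proteins, medians lay above that of all genes. These differences were not tested, and the lists, like the members, were chosen with earlier results of these data known. Of 8 tested IGFBP proteases and their inhibitors, 5 stood at least 2-fold above the median gene and 0 as far below (median 1.29, beside 0.06 for all genes). Of all genes, 12.8% stood as far above and 9.46% as far below. MMP7, a matrix protease that can cut binding proteins, was at 7.37 FPKM with vector and 54.6 FPKM with ATOH8 (3.09), CTSD, a lysosomal protease, at 83.2 and 189 FPKM (1.54), and TIMP1, an inhibitor of matrix metalloproteinases, at 43.3 and 98.3 FPKM (1.52). PAPPA, which cuts IGFBP4, was at 12.9 and 20.4 FPKM (0.98). Its inhibitors, the stanniocalcins, went apart, with STC1 at 0.747 and 2.62 FPKM (1.41) and STC2 at 9.34 and 4.81 FPKM (-0.47). On GC-corrected folds, 3 of these 8 were at least 2-fold higher, beside 8.33% of all genes.

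Of 6 other secreted proteins with an IGFBP domain, 3 stood at least 2-fold above the median gene and 0 as far below (median 0.97). The shares of all genes were 12.8% and 9.46%, here and for the next list. WISP2, a matricellular protein gene of the CCN family, was at 1.93 and 15.9 FPKM (2.88), KAZALD1 at 4.03 and 9.82 FPKM (1.46) and HTRA1, a secreted serine protease gene that is also in the protease list, at 16.6 and 30.0 FPKM (1.18). CTGF, of the same CCN family, was at 11.05 and 14.9 FPKM (0.76). Of 5 cell surface partners of binding proteins, 3 stood at least 2-fold above the median gene and 0 as far below (median 1.06). LRP1, a large endocytic receptor reported to bind IGFBP3, was at 2.09 and 12.6 FPKM (2.50), ITGA5, an integrin subunit gene, at 9.80 and 21.9 FPKM (1.44) and TMEM219, another reported IGFBP3 receptor gene, at 32.4 and 53.2 FPKM (1.06). ITGAV was at 31.6 and 18.7 FPKM (-0.37). On GC-corrected folds WISP2 alone of the first list and 2 of the second remained at least 2-fold higher, beside 8.33% of all genes.

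Inside the cell, the lists of adaptors, PI3K-AKT genes and the mTORC1 arm each held genes above and genes below the median gene. Of 14 receptor adaptors and feedback regulators, 2 stood at least 2-fold above the median gene and 1 as far below (median 0.43). Beside this, 12.8% of all genes stood as far above and 9.46% as far below. SOCS3, a feedback inhibitor gene, was at 3.94 and 8.95 FPKM (1.37), SHC1, an adaptor gene, at 65.5 and 101 FPKM (0.98) and PTPN11, the gene of the phosphatase SHP2, at 44.5 and 14.9 FPKM (-1.16). As deposited 1 of the 14 was at least 2-fold higher and 3 lower (median 0.07), beside 6.24% and 19% of all genes (median -0.30). GC-corrected 0 were higher and 1 lower (median 0.09), beside 8.33% and 5.95% of all genes. On GC-corrected folds SOCS3 (0.83), IRS1 (0.84) and PTPN11 (-0.81) were all under 2-fold, and the gene beyond it was GRB14, an adaptor gene (-1.09). Of 13 PI3K-AKT genes, 1 stood at least 2-fold above the median gene and 0 as far below (median 0.04), beside the same 12.8% and 9.46%. The 1 higher gene was PIK3IP1, an inhibitor of PI3-kinase, at 0.293 and 2.62 FPKM (1.84). PIK3IP1 is also in the FOXO list below and is counted as higher there too. AKT1 was at 53.4 and 64.3 FPKM (0.62) and INPPL1, the gene of the phosphatase SHIP2, at 23.8 and 31.4 FPKM (0.74). Of 16 genes of the mTORC1 arm, 1 was at least 2-fold higher and 1 lower, again beside 12.8% and 9.46% of all genes. The higher gene was the inhibitor gene DEPTOR at 1.30 and 3.13 FPKM (1.20). The lower was the S6 kinase gene RPS6KB1 at 23.9 and 7.46 FPKM (-1.20). RICTOR, which belongs to the related complex mTORC2 (-0.83), and the translation repressor gene EIF4EBP2 (0.78) were within 2-fold. As deposited 0 of the 16 were at least 2-fold higher and 2 lower, beside 6.24% and 19% of all genes. DEPTOR was then at 0.84, and the 2 lower genes were RPS6KB1 and RICTOR. GC-corrected, DEPTOR (1.26) was again the 1 gene at least 2-fold higher, beside 8.33% of all genes. On that scale RPS6KB1 was at -0.57 and the 1 lower gene was EIF4EBP1 (-1.01), another translation repressor gene, beside 5.95% of all genes.

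**Figure D5:**
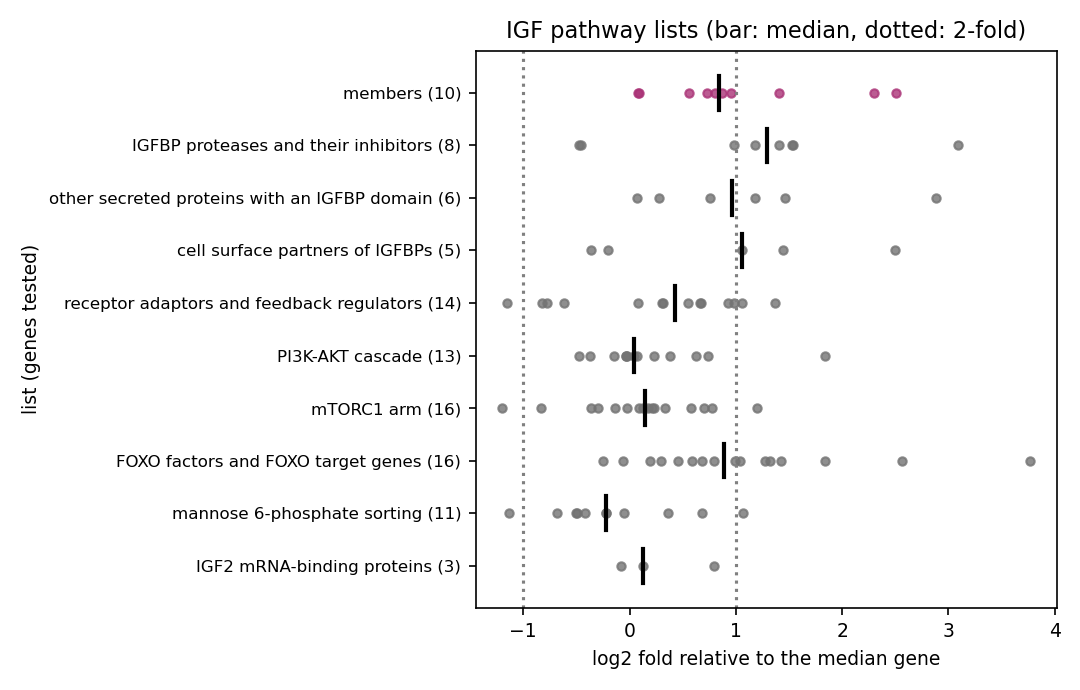
Log2 fold relative to the median gene of each tested gene (points) in the 10 members and in 9 pathway lists, with the list median as a bar and the number of genes tested in brackets. The protease, IGFBP domain, surface partner and FOXO lists have medians between 0.89 and 1.29, and the PI3K-AKT, mTORC1 and IGF2 mRNA-binding lists between 0.04 and 0.15.

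FOXO factors and FOXO target genes, which include no member, had 7 of 16 at least 2-fold higher and 0 lower (median 0.89). Of all genes, 12.8% were higher and 9.46% lower by this rule. ERBB3, a receptor gene that FOXO factors induce, was at 6.16 and 31.9 FPKM (2.56) and SOD2, the mitochondrial superoxide dismutase gene, at 28.4 and 60.5 FPKM (1.42). TXNIP, a thioredoxin-binding protein gene, had the largest fold of the list (3.77). Of the 16, 14 lay above the median gene, beside 53% of all genes. The 2 below it were PDK4 at 30.0 and 19.4 FPKM (-0.25) and BNIP3 at 29.7 and 21.9 FPKM (-0.06). As deposited 12 of the 16 were higher in the ATOH8 library and 4 lower, beside 35.3% of all genes higher. The factor genes were low, with FOXO1 at 1.34 and 1.75 FPKM (0.59), FOXO3 at 2.10 and 1.96 FPKM (0.29) and FOXO4 at 1.35 and 2.77 FPKM (1.04). FOXO4 is thus 1 of the 7 genes counted as higher. IRS2 and INSR, also known FOXO targets, had folds of 0.08 and 0.56, and IGFBP1 2.51. On GC-corrected folds 6 of these 16 were at least 2-fold higher, beside 8.33% of all genes, and as deposited 4 were, beside 6.24%. The authors' deposited table marked 4 of them up and 0 down. Over all lists it marked 7 of the 90 tested genes up and 5 down, beside 637 and 1813 of the 12342 genes tested.

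Genes of mannose 6-phosphate sorting, the route that IGF2R serves, had a median of -0.22, beside 0.06 for all genes. Of the 11 tested, 1 was at least 2-fold higher and 1 lower, close to the 12.8% and 9.46% of all genes. VPS29, of the retromer, was at 89.7 and 31.1 FPKM (-1.14), VPS26A, its partner, at 26.4 and 12.3 FPKM (-0.68), GGA1, a sorting adaptor gene, at 7.88 and 10.1 FPKM (0.68) and GNPTG, a subunit of the phosphotransferase that makes the tag, at 7.39 and 12.7 FPKM (1.06). As deposited 0 of the 11 were at least 2-fold higher and 2 lower, VPS29 and VPS26A, beside 6.24% and 19% of all genes. On GC-corrected folds 0 were beyond 2-fold either way, with VPS29 at -0.59 and GNPTG at 0.67. Of all genes, 8.33% were then at least 2-fold higher and 5.95% lower. Of the 3 genes of the IGF2 mRNA-binding proteins, which bind many transcripts, IGF2BP2 had a fold of 0.79, IGF2BP1 of 0.13 and IGF2BP3 of -0.08. Over all lists 90 genes were tested. Relative to the median gene 21 of them were at least 2-fold higher and 3 lower, beside 12.8% and 9.46% of all genes. As deposited 13 were higher and 7 lower, beside 6.24% and 19% of all genes. The counts and the shares of all genes both moved with the centring.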

How the data were processed

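RNA was sequenced from 2 A549 cultures, 1 library per group. The submitters' processing notes list the build hg38 (GRCh38) and the tools Cufflinks 2.2.1, HISAT2 and CASAVA, with no roles. Not given in the sources used here are annotation, strand setting and read depth. The authors deposited 1 FPKM table per library, per the file headers, and no 0 is listed. They also deposited a comparison table with log2 ratios, p-values and q-values for 2747 genes, per the file headers. The log2 ratio and q-value columns of the authors' table are quoted as theirs, and 2 further columns of per-library values were not used because their names match no label. Its other unit, a log2 ratio to 0 in 19 rows, is written by the authors as an extreme number.

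FPKM tables were joined by gene identifier, rows sharing a symbol were summed, and log2(FPKM + 1) folds were centred on the median of genes averaging at least 5 FPKM. Genes averaging at least 1 FPKM were counted by a 2-fold rule of size, without a test. GC content came from the longest GENCODE 29 transcript of each gene (99.8% of tested genes), with a lowess fraction of 0.3 (statsmodels 0.14.6, Python 3.11.15); for IGFBP2 that transcript is not the coding one. On simulated data, GC correction was required to recover known folds with and without a trend with GC content. Centring was required to do so only without that trend. Promoter words were searched in the 250 bases before each RefSeq start. Named genes were the members, the ligands and further carriers, the 4 genes with the largest absolute fold in each other list, and the 3 genes nearest to the highest and the lowest member; 1 gene that this rule names is not reported here. PAPPA, STC2, GRB14, EIF4EBP1, PDK4, BNIP3, the FOXO factor genes, and genes near or overlapping a member were named after their values were seen. The members and lists were chosen with earlier results of these data known. Processing alternatives were no centring, pseudocounts of 0.1 and 5, a minimum average of 5 FPKM and none, upper quartile scaling, an equal sum without mitochondrially encoded genes, GC correction, and the highest row of a shared symbol.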

Additional observations from a re-analysis of the deposited data

How the results depend on the processing

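With 1 library per group, no result has a replicate error or a p-value, and the depth behind each FPKM is unknown. No paired analysis was possible because each group held 1 library. The number of members at least 2-fold higher was 3, and between 2 (GC correction) and 4 (pseudocount of 0.1) under the 9 alternatives, and the number at least 2-fold lower was 0 under each of them. IGFBP1 (1.73 to 2.82) and IGFBP3 (1.94 to 2.34) stayed at least 2-fold higher under all 9, and IGFBP4 (0.82 to 1.44) under all but the GC correction. IGFBP6 (-0.54 to 0.11) and IRS2 (-0.42 to 0.11) were below 0 as deposited, with an equal sum without mitochondrially encoded genes, and with GC correction. For the pathway lists, the count at least 2-fold higher was 21, and 9 with a pseudocount of 5, 13 as deposited and 13 with GC correction. The count at least 2-fold lower was 3, and 7 as deposited. Over all genes the share at least 2-fold higher was 12.8%, 6.24% as deposited and 8.33% with GC correction. The share of all genes at least 2-fold lower was 9.46%, and 19% as deposited. A larger pseudocount shrinks folds of low genes by construction, and omitting the centring shifts every fold down by 0.36. The cause of the change with GC correction was not tested.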
